A study of Arabidopsis thaliana with 4 samples.

Results

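GID1A (AT3G05120) and GID1B (AT3G63010) encode receptors of gibberellin, a growth hormone of plants. These 2 genes were chosen by name out of 13356 genes that the array's annotation pairs with at least 1 probe set of a single gene. Each is read by 1 such probe set, and both were bright enough to be tested.

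The samples were shoot apices dissected from wild-type Arabidopsis thaliana of the Col-0 accession, which hold the shoot meristem and its youngest organ primordia. The group SD30 had grown for 30 days in short days, and the group SD30_LD7 for 30 days in short days and then for 7 days in long days, a day length that brings this species to flower. There were 2 samples in each group, with total RNA of each on 1 oligonucleotide array. No mutant, transgene or applied hormone was part of either group. The shifted plants were also 7 days older, so day length and age cannot be told apart in these data. The labels do not say that the replicas came from separate plantings, so a p-value here reflects only how these samples scatter, and that scatter may be technical.

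Gibberellin acts through a short pathway. The hormone binds a GID1 protein in the nucleus, the occupied receptor binds a DELLA protein, a repressor of growth, and the F-box protein SLY1 then leads the DELLA protein to degradation. Arabidopsis has 1 more receptor gene, GID1C (AT5G27320), which is closer in sequence to GID1A than to GID1B. The receptors overlap in function, so that plants lacking any 1 of them grow nearly normally, while plants lacking all are severe dwarfs. Gibberellin is required for Arabidopsis to flower in short days, and the GID1 genes themselves are known to be under negative feedback by the hormone. The comparison asks whether the apex holds different amounts of receptor transcript once plants have been moved from short to long days.

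Neither receptor gene passed the test, and their differences pointed in opposite directions. The GID1A signal was lower after the shift, at 0.84 times its short day level, and the GID1B signal was higher, at 1.22 times. The arrays of the groups did not overlap for either gene. Among all 15922 probe sets tested, however, 54.5 percent had groups that did not overlap, and 15.0 percent were called at an adjusted p below 0.05, 6.80 percent higher and 8.20 percent lower after the shift. Of GID1A and GID1B, limma called 0 of 2, and 0 of 2 had an unadjusted p below 0.05.

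The GID1A probe set had a scaled intensity of 684.9 in SD30 replicate 1 and 698 in SD30 replicate 2, against 548.1 in SD30_LD7 replicate 1 and 611 in SD30_LD7 replicate 2. The short day arrays were close to each other and both shifted arrays lay below them. The group means were 691 ± 9.26 and 579.6 ± 44.5 (SD, n = 2 per group). On the log2 scale the difference, shifted minus short day, was -0.26 ± 0.12 (SE), with a 95 percent interval from -0.51 to 0.00094. As a fold this interval runs from 0.70 to 1.00 times the short day level. The limma p was 0.051, and 0.19 after Benjamini-Hochberg adjustment over every probe set tested. Of all probe sets tested, 26.7 percent had an unadjusted p below 0.05. The difference was larger in size than 62.1 percent of the differences over all probe sets, whose median size was 0.19.

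The GID1B probe set read 259.7 and 265 in SD30 replicates 1 and 2, and 281.6 and 364.7 in SD30_LD7 replicates 1 and 2. The second shifted array stood well above the other 3, while the first lay only slightly above the short day arrays. The means were 262 ± 3.75 and 323 ± 58.8 (SD, n = 2 per group). The log2 difference was 0.29 ± 0.17 (SE), with a 95 percent interval from -0.08 to 0.65, or 0.95 to 1.57 times the short day level. The limma p was 0.11 before and 0.31 after adjustment. It was larger in size than 66.2 percent of the differences over all probe sets. Its value rested on which shifted array was used, at 0.10 without SD30_LD7 replicate 2 and 0.48 without SD30_LD7 replicate 1, with neither passing the test (adjusted p = 0.84 and 0.18).

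GID1C, the other receptor gene, read 102.1 and 78.6 in SD30 replicates 1 and 2, and 101.7 and 89.6 in SD30_LD7 replicates 1 and 2. Its groups overlapped, and the spread within the short day group exceeded the difference between group means of 90.3 ± 16.6 and 95.7 ± 8.56 (SD, n = 2 per group). The log2 difference of 0.09 ± 0.26 (SE) did not pass (adjusted p = 0.87), and its interval from -0.48 to 0.66 is the widest of the 3 receptors. Intensities of different probe sets cannot be ranked against each other, since probes differ in how strongly they bind, so the order of the 3 receptors by transcript level was not determined.

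**Figure D1:**
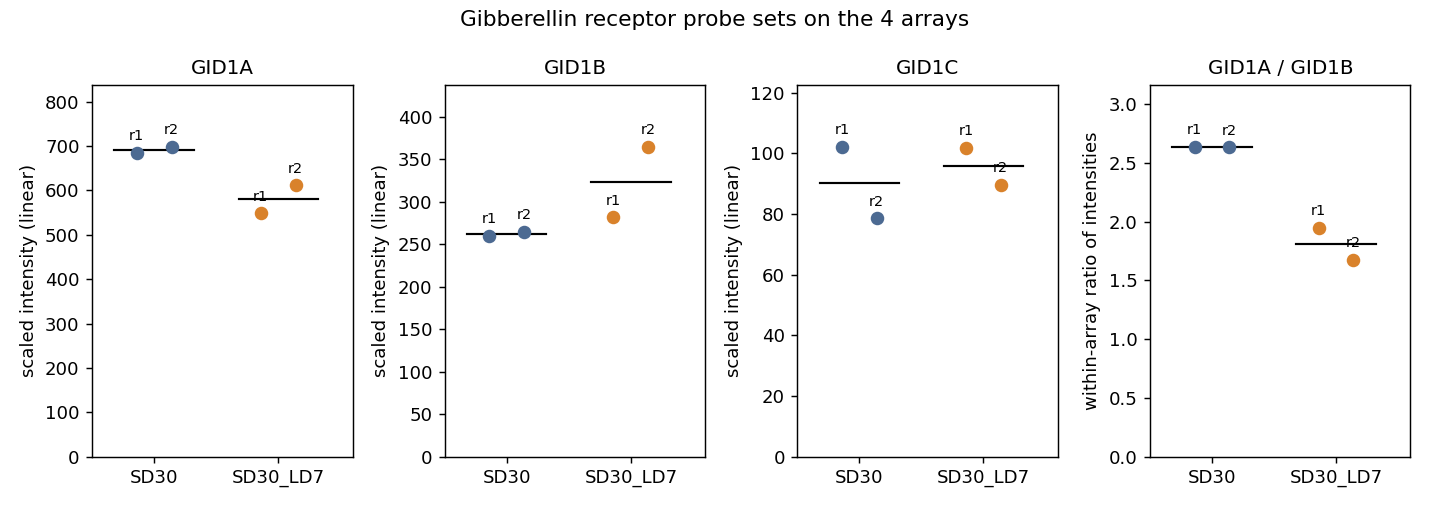
Scaled linear intensity of the GID1A, GID1B and GID1C probe sets, and the within-array ratio of GID1A to GID1B, in the groups SD30 and SD30_LD7. Points are single arrays (r1 and r2 are replicates 1 and 2) and bars are group means. GID1A is lower and GID1B higher on both shifted arrays, and GID1C overlaps between groups.

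The relation between the 2 receptors was examined through the ratio of their signals on each array, in which any scaling of the whole array cancels. Its level depends on the probes and only its change can be read. The GID1A signal was 2.64 times that of GID1B in SD30 replicate 1 and 2.63 times in SD30 replicate 2. After the shift it was 1.95 times in replicate 1 and 1.68 times in replicate 2. The short day arrays were nearly identical, and both shifted arrays lay below them. That separation was fixed in advance by GID1A being lower and GID1B higher on both shifted arrays, so it adds no evidence. The mean log2 ratio went from 1.40 ± 0.0013 to 0.85 ± 0.15 (SD, n = 2 per group), a difference of -0.55, so the ratio after the shift was 0.685 times that in short days. In an exact two-sided permutation test over the 4 arrays p was 0.33, which is the smallest value that 2 arrays against 2 allow, so this test cannot reach the 0.05 threshold. The difference in the ratio was -0.44 when SD30_LD7 replicate 2 was left out and -0.65 when SD30_LD7 replicate 1 was.

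The ratios to GID1C, computed as the other 2 of 3 receptor pairs, overlapped between groups. The log2 ratio of GID1A to GID1C was 2.75 and 3.15 before and 2.43 and 2.77 after the shift, a difference of -0.35 (exact permutation p = 0.67). For GID1B to GID1C it was 1.35 and 1.75 against 1.47 and 2.03, a difference of 0.20 (exact permutation p = 0.67). Adjusted over the 3 pairs, the exact permutation p was 0.67 for each.

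**Figure D2:**
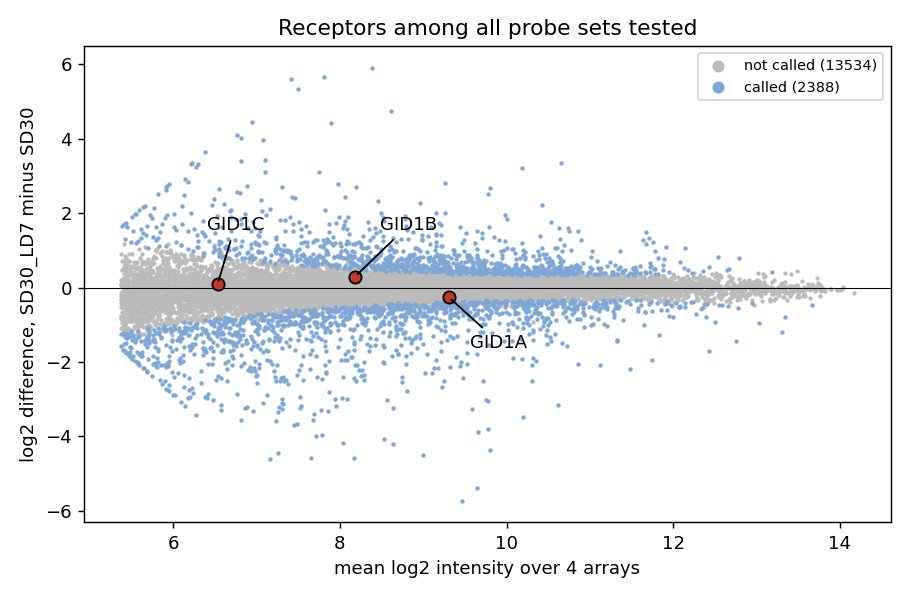
Log2 difference, SD30_LD7 minus SD30, against the mean log2 intensity over 4 arrays for all 15922 probe sets tested. Blue points are the 2388 called by limma, grey points the others, and red points the 3 receptor genes, which lie inside the grey band at -0.26 (GID1A), 0.29 (GID1B) and 0.09 (GID1C).

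Downstream of the receptors, all 4 listed genes for the turnover and modification of DELLA proteins were tested, and 1 was called. SLY2 (AT5G48170), also named SNEEZY, encodes an F-box protein that can take the place of SLY1. It read 275.3 and 323.1 on the short day arrays, then 470.5 and 398.2, with both shifted arrays above both short day arrays. Its log2 difference was 0.54 ± 0.15 (SE, limma adjusted p = 0.034), a rise to 1.45 times the short day level. The call rested on every array, since leaving out any 1 raised the adjusted p to between 0.072 and 0.25, and it also failed with a higher floor on dim signals, the 40th percentile (0.079), and with no intensity trend (0.099).

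SLY1 (AT4G24210), the main F-box gene of the pathway, read 620.1 and 684.9 before and 771.1 and 852.9 after the shift. The groups did not overlap, but the log2 difference of 0.32 ± 0.12 (SE) did not pass over all probe sets (limma adjusted p = 0.0999). With each array centred on its median SLY1 just passed (0.049). SPY (AT3G11540), which encodes the O-fucosyltransferase that acts on DELLA proteins, had 0.14 ± 0.11 (limma adjusted p = 0.44), with arrays at 1172.6 and 1140.5, then 1344.1 and 1214. SEC (AT3G04240), which encodes an O-GlcNAc transferase that also modifies DELLA proteins, had 0.06 ± 0.10 (limma adjusted p = 0.78). Its arrays read 1220.6 and 1233.3, then 1311.3 and 1243.4, the smallest difference of the 4 genes. All 4 differences were above 0, with a median of 0.23, beside a median of -0.0021 over all probe sets tested.

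The GASA list holds genes of small cysteine-rich proteins, several of which respond to gibberellin. Whether the members measured here do so was not tested. The annotation pairs 6 of its 14 loci with a probe set and gives them no names, and 2 were bright enough to test. AT2G14900 rose from 392.3 and 350.3 in short days to 844.5 and 898.7 after the shift. Both shifted arrays stood far above both short day arrays, with a log2 difference of 1.23 ± 0.12 (SE, limma adjusted p = 2.5e-05), or 2.35 times. AT1G22690 read 82.1 and 44.4, then 51.7 and 21.3, the last below the floor of 23.5 set on low intensities. Its groups overlapped and its difference of -0.79 ± 0.45 did not pass (limma adjusted p = 0.30). AT2G39540, AT5G59845, AT2G18420 and AT2G30810 were too dim to test, none of them above an intensity of 47.2 on any array.

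Of 4 genes listed as transporters of gibberellin, 2 were bright enough to test. AT1G68570, also named NPF3.1, encodes a member of the NRT1/PTR family that can carry gibberellin into cells. It rose from 345.8 and 350.9 to 610.8 and 690.1, with groups far apart relative to their spread. The log2 difference was 0.90 ± 0.13 (SE, limma adjusted p = 4.7e-04), or 1.86 times. SWEET13, a sugar transporter gene whose protein also carries gibberellin, had -0.20 ± 0.32 (limma adjusted p = 0.76), with arrays at 58.5 and 63.5, then 49.1 and 57.7, a difference that turned to 0.04 with quantile normalization. Its close relative SWEET14 was too dim to test. It lay below the floor on both short day arrays, at 16.2 and 14.5, and above it on both shifted arrays, at 50.8 and 34.2. AT3G25260 was also too dim to test, with values of 23 to 46.9.

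Over all gibberellin lists, the annotation names 17 of 75 genes, 11 were tested, and 3 rose, 0 fell and 8 did not pass, beside 6.80 percent higher and 8.20 percent lower over all probe sets tested. Their median log2 difference was 0.14, beside -0.0021 over all probe sets. Groups did not overlap for 9 of the 11, beside 54.5 percent of all probe sets. With no filter on dim probe sets, when limma called 152 probe sets in place of 2388, none of these 3 rises passed (adjusted p from 0.071 to 0.25), nor did those of CXE18 and AT2G03550 in the family described next (0.12 and 0.10). GID1A was 1 of 3 tested genes of these lists with a difference below 0, with AT1G22690 and SWEET13. The genes of gibberellin synthesis (14 listed) and inactivation (11), the DELLA repressors (5), their partners (12) and apex regulators of gibberellin metabolism (8) were not analysed here, so the level of the hormone's enzymes and of the receptors' direct targets is not part of these results.

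**Figure D3:**
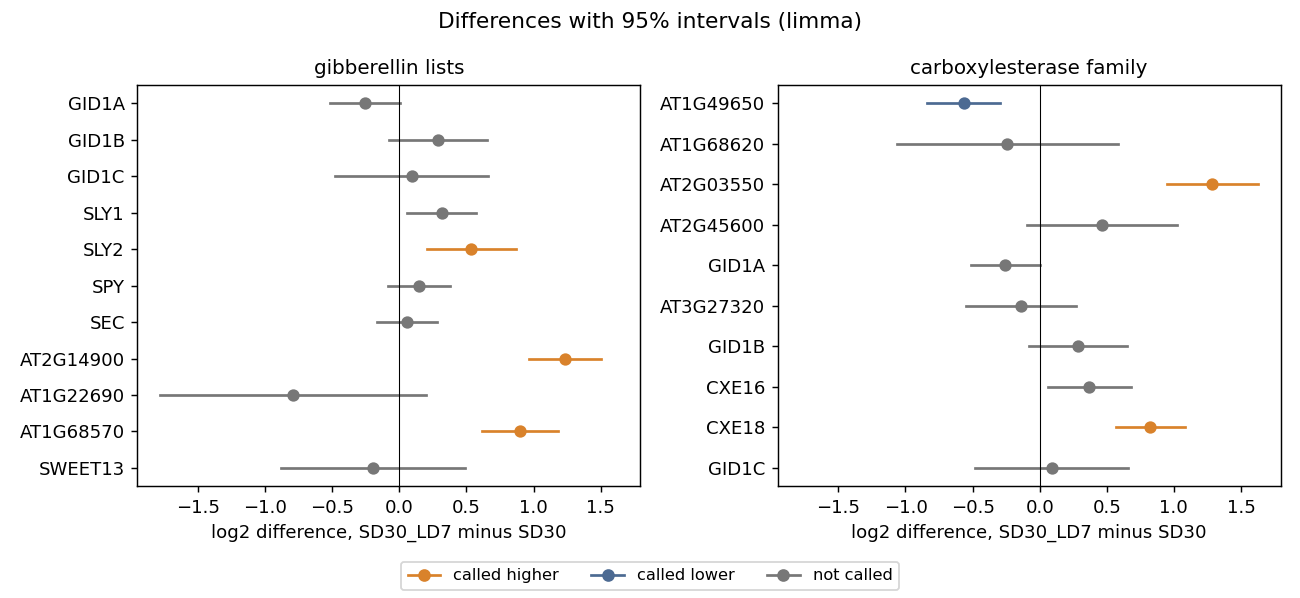
Log2 difference, SD30_LD7 minus SD30, with its 95 percent interval for the 11 tested genes of the gibberellin lists and the 10 tested genes of the carboxylesterase family (the receptors appear in both). Orange marks genes called higher, blue lower and grey not called. The receptor intervals reach or cross 0, while AT2G14900, AT1G68570, AT2G03550 and CXE18 lie clearly above it.

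GID1 proteins belong by sequence to the plant carboxylesterase family and have the fold of its enzymes, but bind a hormone in the pocket where the enzymes hold a substrate. The family list has 20 loci, of which 15 are paired with a probe set and 10 were tested, the 3 receptors and 7 others. Of the 7 relatives, 2 rose, 1 fell and 4 did not pass, and 0 of the 3 receptors were called, beside 6.80 percent higher and 8.20 percent lower over all probe sets tested. The median difference of the 7 was 0.37, beside -0.0021 over all probe sets.

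CXE18 (AT5G23530) rose from 537.9 and 590.4 to 936.9 and 1063.4, a log2 difference of 0.82 ± 0.12 (SE, limma adjusted p = 4.7e-04). AT2G03550 rose from 231.6 and 191.6 to 492.7 and 537.2, by 1.29 ± 0.15 (limma adjusted p = 1.1e-04). AT1G49650 fell from 611.1 and 684.5 to 428.6 and 446.3, with a difference of -0.56 ± 0.12 (limma adjusted p = 0.0089), but did not pass when SD30 replicate 2 (0.11), SD30_LD7 replicate 1 (0.072) or SD30_LD7 replicate 2 (0.054) was left out, with no intensity trend (0.052) or with no filter on dim probe sets (0.13). In each of these 3 genes, named because limma called them, the groups lay apart, beside 54.5 percent of all probe sets tested. In size the fall of AT1G49650 and the rises of CXE18 and AT2G03550 were larger than the difference of either receptor, though no test of that contrast was made.

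CXE16 (AT5G14310) did not pass at 0.37 ± 0.14 (limma adjusted p = 0.11), though its arrays were tight, at 293.7 and 284.6 against 369.7 and 376.9. AT2G45600 had 0.46 ± 0.26 (limma adjusted p = 0.29) and groups that did not overlap. AT3G27320 and AT1G68620 had overlapping groups and differences of -0.14 ± 0.19 and -0.24 ± 0.38, whose signs turned without SD30_LD7 replicate 1 (0.11) and without SD30 replicate 1 (0.05) respectively. The other 5 family members were too dim to test.

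The genes whose pattern over the 4 arrays was most like that of each receptor were found by the Euclidean distance between log2 values centred on each probe set's mean, among 8809 other tested probe sets paired with 1 gene. With 4 arrays such likeness is a description only. Nearest to GID1A were AT1G71140 (distance 0.013), TUB5, a beta-tubulin gene (0.027), and AT3G56510 (0.036). TUB5 read 2128.4 and 2122.8, then 1689.7 and 1902.8, a difference of -0.25 that did not pass either (limma adjusted p = 0.16). Nearest to GID1B were AT2G01480 (0.030), the tetraspanin gene TET5 (0.040) and AT1G23330 (0.041). TET5 read 91.7 and 93.5, then 101.2 and 133.1, and did not pass (limma adjusted p = 0.46). Like GID1B, all 3 were highest on SD30_LD7 replicate 2, which follows from how they were picked. None of the 6 genes was called, beside 15.0 percent of all probe sets tested. This too follows largely from picking patterns close to those of 2 uncalled genes. AT1G71140 was also dim, at 38.5 to 49.2 beside the floor of 23.5.

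The apices are mixtures of cell types, and in such samples fewer cells of a type and less RNA per cell cannot be told apart. Of the shoot meristem markers, CLV3 read 72.6 to 103.5 and ULT1 986.4 to 1162.9 over the 4 arrays, with 0 of these 2 called, and the other 4 were not analysed here. Of 2 green leaf markers LHCB4.3 rose (1.72 ± 0.16, limma adjusted p = 1.7e-05) and RCA had -0.42 ± 0.15 (limma adjusted p = 0.085). LHCB4.3 read 126.7 and 131.5 in short days, then 435.3 and 413.1. RCA read 5410.2 and 3785.5, then 3444.4 and 3327.5. Of 3 trichome and guard cell markers SPCH fell (-0.57 ± 0.15, limma adjusted p = 0.026). The others, TRY (0.27 ± 0.20) and FMA (0.14 ± 0.29), had differences above 0 and were not called (limma adjusted p = 0.44 and 0.82). The vascular markers were not analysed here. The part of these shifts in the receptor values was not tested. For the actin control, the 3' probe set over the 5' probe set, which rises as RNA breaks down, differed most between the shifted arrays, at 8.27 in replicate 1 and 4.64 in replicate 2, with 6.51 and 5.72 in short days. The shifted arrays also differed for GID1B, at 281.6 and 364.7, and for GID1A, at 548.1 and 611, each lower in replicate 1. Whether RNA integrity has a part in that spread was not tested.

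**Figure D4:**
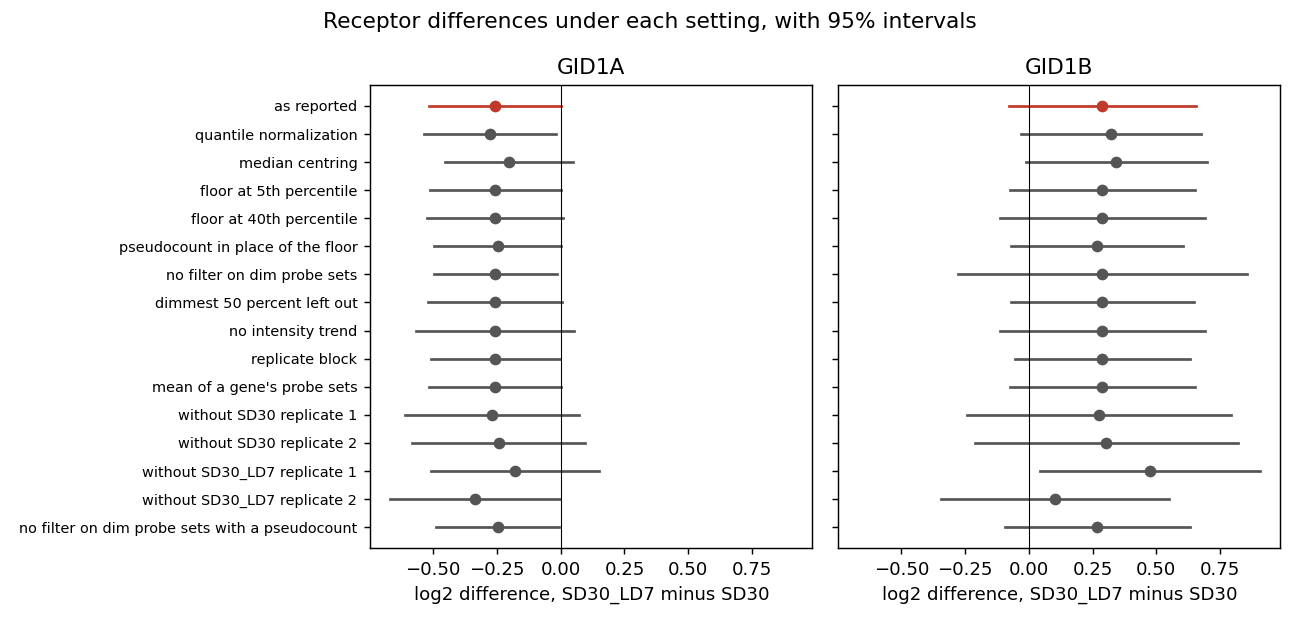
Log2 difference, SD30_LD7 minus SD30, of GID1A and GID1B with 95 percent intervals as reported (red) and under each of 15 other settings (grey). GID1A stays below 0, from -0.34 to -0.18, and GID1B above 0, from 0.10 to 0.48. Only quantile normalization and median centring could have turned these signs.

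The direction of both receptors was the same under all 15 other settings tried, and neither passed the adjusted threshold under any of them. Most of these settings could not turn the direction. Changing only the floor, filter, intensity trend, block or probe set choice left the differences at -0.26 and 0.29. Since the groups did not overlap for either gene, leaving out an array or using a pseudocount had to keep the sign. Only quantile normalization and median centring could have turned it. Median centring, which moved the median difference over all probe sets from -0.0021 to 0.053, gave -0.20 for GID1A and 0.34 for GID1B. The balance of calls over all probe sets turned with that scaling, from 1083 higher and 1305 lower to 1329 and 1066.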

How the data were processed

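The deposited values are linear intensities of 22746 probe sets, beside 64 controls that were not tested. Their mean without the lowest and highest 2 percent was 500.03 to 500.04 on every array, so the authors deposited intensities already brought to 1 scale. How they did so is not given in the sources. Probe sets were named from a table pairing 13513 of them with 1 gene, 503 with several and 8730 with none, with symbols from the TAIR10.1 gene table. The brightest probe set stood for a gene.

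Intensities below 23.5, the 20th percentile, were set to that floor, log2 values were taken, and the dimmest 30 percent of probe sets were left out, leaving 15922. The comparison used limma 3.58.1 in R 4.3.3 (eBayes with an intensity trend, two-sided, 2 residual and 9.90 prior degrees of freedom). A call is a p below 0.05 after Benjamini-Hochberg adjustment over all probe sets tested. Each adjusted p of a gene comes from limma, in this model unless another setting is named. In 20 simulations 200 of 15922 probe sets were changed, fewer than the 2388 called in the data. Calls were made for 85.95 percent of the 2-fold changes and for 98.2 percent of those of 4-fold. Of the calls 6.74 percent were false, and 95.0 percent of the 95 percent intervals held the true value. The noise was normal, independent and drawn from the spreads that this model fitted. All these rates therefore rest on the model being right for the real arrays, and the last value is nearly built in. Changes as small as those of the receptors were not simulated. Figures used matplotlib 3.10.9 in Python 3.11.15.

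The members and gene lists were chosen with earlier results of these data known. Genes named were the receptors, every tested gene of the gibberellin lists, the called members and 4 others of the carboxylesterase family, and the 3 genes most like each receptor. Precision is limited by the 2 arrays per group. The closing section gives the other settings tried: scaling, floor, filter, variance model, replicate block, probe set choice and each array left out.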

Additional observations from a re-analysis of the deposited data

How the results depend on the processing

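Under 15 other settings the log2 difference of GID1A ranged from -0.34 to -0.18 and that of GID1B from 0.10 to 0.48. The extremes of both differences came when 1 shifted array was left out. The lowest adjusted p of GID1A, 0.16, came with quantile normalization. Leaving out 1 array, where the remaining array of its group is taken to scatter as the other group does, gave ratio differences of -0.65 to -0.44, 2 calls in the gibberellin lists, 2 to 3 in the carboxylesterase family, and 1058 to 1494 over all probe sets against 2388. Testing dim probe sets too gave 152 calls, 0 in the gibberellin lists and 1 in the carboxylesterase family (AT1G47480, adjusted p = 0.032, below the floor on both shifted arrays and otherwise too dim to test), and with a pseudocount as well, a setting chosen after seeing the data, 1584, 2 and 3. At no filter AT2G14900 had an adjusted p of 0.071, AT1G68570 of 0.088, AT2G03550 of 0.10, CXE18 of 0.12 and AT1G49650 of 0.13. No intensity trend gave 1532 calls. The sign of GID1C turned at a floor of the 40th percentile (-0.0021) and without SD30 replicate 2 (-0.097, against 0.28 without SD30 replicate 1), that of SWEET13 (0.043) and AT1G68620 (0.047) with quantile normalization, and those of AT1G68620 and AT3G27320 when 1 array was left out (from -0.53 to 0.049 and from -0.40 to 0.11). The cause was not tested. With the replicate number as a block, GID1A had -0.26 (adjusted p = 0.17), GID1B 0.29 (0.26) and the ratio -0.55, with 3 calls in each of the gibberellin and carboxylesterase lists and 2741 over all probe sets. The deviations of same-numbered arrays from their group means had a correlation of 0.047. The labels give only the replica number, and whether same-numbered arrays shared a batch was not tested. Averaging probe sets per gene left both differences as they were, since each receptor has 1.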
